A study of Mus musculus with 12 samples.

Results

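Primary neural stem cells of the mouse were profiled by RNA-seq in 12 libraries, of which 6 were taken 48 h after the start of differentiation, and these 6 did not look alike. The libraries with the number 2 in their titles, 1 of wild type and 1 labelled Chd5-/-, kept the genes of mitosis high, while these genes were low in the 4 libraries numbered 1 and 3. The comparison described here sets these 2 number 2 libraries against the 4 others, with genotype as a covariate. The members were thus chosen by the level of mitosis genes. Every difference between them at 48 h is therefore a description of these libraries, with a size and an error but no test.

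The study set cells with and without Chd5, a chromatin remodeller, side by side as they differentiated. All groups came from neural stem cells kept in medium with epidermal growth factor (EGF) and fibroblast growth factor 2 (FGF2), which was replaced with neurobasal medium and B-27 supplement to start differentiation. The groups used were wild type at 48 h, Chd5-/- at 48 h, wild type at 3 h and Chd5-/- at 3 h, with 3 libraries each. No label ties a number to an animal or a culture of its own, so p-values measure only the spread between these samples, which may be technical. The deleted stretch of Chd5, and the age and strain of the animals, are not given in the labels.

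Stem and progenitor cells that lose EGF and FGF signals usually leave the cell cycle: genes of DNA replication and mitosis, many of them under E2F factors and the MYB-MuvB and FOXM1 complexes, are shut off. Cultured neural stem cells that exit the cycle can then switch on genes of astrocytes and of neurons. Dividing cells also make membrane lipids, nucleotides and amino acids, so sterol, one-carbon and amino acid genes are commonly high in them. In RNA of a whole culture, fewer cells of a type and less RNA per cell cannot be told apart.

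Levels are given as CPM, counts per M reads of library size after TMM scaling. Where 3 values are given for a genotype they are those of numbers 1, 2 and 3. Estimated reads at 48 h came to 14.48, 16.11 and 15.68 M in wild type and, in the libraries labelled Chd5-/-, to 14.42, 14.48 and 14.12 M. Numbers 1 and 3 lay close together, with a chi-square per gene of 1.92 in wild type and 1.79 in Chd5-/- where counting alone gives about 1. Number 2 lay at 227 and 235 from the others of wild type and at 141 and 139 from those of Chd5-/-. Across 16043 genes, which are not independent replicates, the log2 CPM of the wild-type number 2 library correlated at 0.936 (Pearson) with the number 2 library labelled Chd5-/-, at 0.928 and 0.927 with wild-type numbers 2 and 3 at 3 h, and at 0.899 and 0.9 with wild-type numbers 1 and 3 at 48 h. The number 2 library labelled Chd5-/- lay about as close to its own genotype at 3 h (0.922 to 0.923) as to its numbers 1 and 3 at 48 h (0.921 and 0.922). Wild-type number 1 at 3 h also stood apart, with 15.77% of its reads on ribosomal protein genes against 3.8% to 4.32% in the other 5 libraries of 3 h. Ranges over 3 h libraries whose end it sets are given with and without it. Retained-intron transcripts took 8.58% of the reads in wild-type number 2 against 7.05% and 7.03% in numbers 1 and 3, and 6.92% against 6.57% and 6.62% in Chd5-/-. Their part in the results was not tested.

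Chd5, the targeted gene (ENSMUSG00000005045, chromosome 4, 152338651 to 152390194, GRCm38), does not separate the genotypes here. It had 6.59, 7.15 and 5.28 CPM in wild type and 5.7, 3.34 and 2.96 CPM in the libraries labelled Chd5-/- at 48 h. Edil3 and Zcchc12, chosen after their values were seen because they do separate the genotypes, put the number 2 libraries with their labels. Edil3 had 85.7 CPM in wild-type number 2 and 0 reads in the number 2 library labelled Chd5-/-, and Zcchc12 had 115 CPM and 0 reads. Chd5-/- refers to the deposited label throughout.

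A gene was counted as higher or lower where, in each genotype, the number 2 library lay beyond both others and at least 2-fold from their mean log2 CPM, in the same direction in both. Of 15834 genes tested, 1211 were higher (7.65%) and 1393 were lower (8.8%). At least 4-fold differences in both genotypes were seen for 462 higher and 345 lower genes. The median difference over all genes was -0.05 on the log2 scale in wild type and -0.01 in Chd5-/-, and 77.1% of genes had the same sign in both. These shares are the background for the gene lists. A count of list members reads against them, and for the cell cycle lists, which chose the libraries, it reads nothing.

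**Figure D1:**
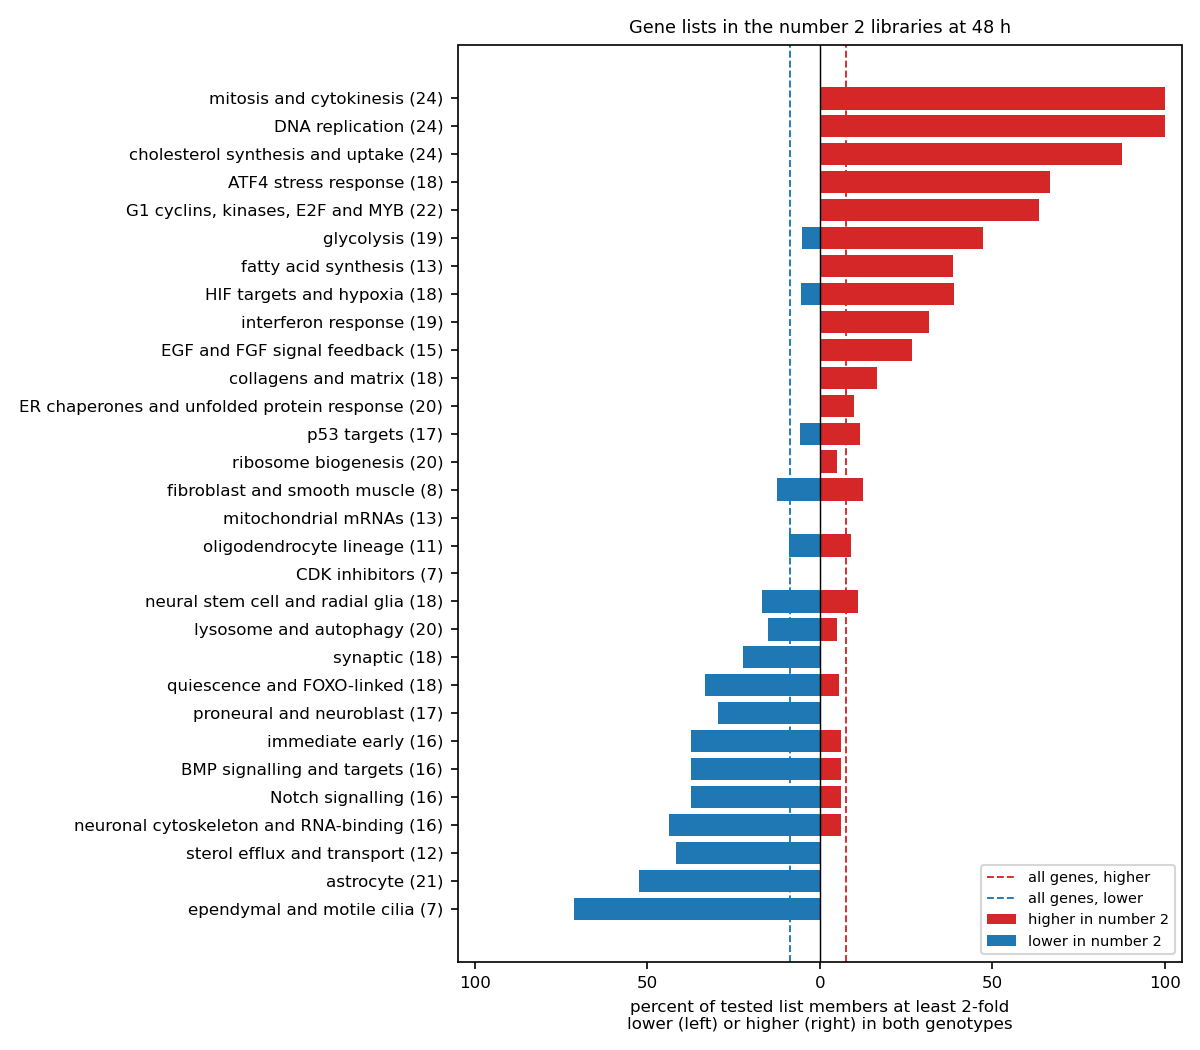
Share of the tested members of each gene list that were at least 2-fold higher (red, right) or lower (blue, left) in the number 2 libraries of both genotypes at 48 h, in percent, with the number of members tested in parentheses and lists with fewer than 7 tested members left out. Dashed lines mark the share among all 15834 genes, 7.65% higher and 8.8% lower. All 24 mitosis and all 24 replication genes were higher, and the astrocyte list had 11 of 21 members lower.

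Mitosis and cytokinesis genes defined the split, and their values are given as a description. Mki67 (ENSMUSG00000031004, chromosome 7, 135689784 to 135716361), a protein of the chromosome surface that marks cycling cells, had 19.1, 417 and 20.2 CPM in wild type and 15.7, 268 and 18.2 CPM in Chd5-/-. Top2a, the topoisomerase that untangles replicated chromosomes, had 38.2, 612 and 44.7 CPM in wild type and 46.3, 747 and 49.4 CPM in Chd5-/-. In each genotype the number 2 library lay far above both others, which lay together. The edgeR fit put the difference at 4.19 ± 0.12 (SE) for Mki67 and 3.92 ± 0.09 for Top2a on the log2 scale (6 libraries). All 24 mitosis genes measured were counted as higher, with medians of 3.83 in wild type and 3.86 in Chd5-/-. The smallest differences were 3.05 in wild type and 3.11 in Chd5-/-. Cdk1, the kinase that drives entry into mitosis, had 12.3, 186 and 10.4 CPM in wild type and 10.2, 147 and 8.45 CPM in Chd5-/-. Among the strongest were Aurkb, the kinase of the chromosomal passenger complex, and Kif11, a spindle motor, both with differences of 4.05 or more in each genotype. Anln, a scaffold of the cleavage furrow, was 5.03 higher in wild type and 3.92 in Chd5-/-.

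DNA replication genes were likewise high in number 2. All 24 were counted as higher, with medians of 2.96 in wild type and 2.64 in Chd5-/-. Cdc6, which loads the MCM helicase at origins, had 1.59, 50.1 and 2.1 CPM in wild type and 2.29, 34.4 and 2.02 CPM in Chd5-/-. Rrm2, the small subunit of ribonucleotide reductase, had 8.06, 133 and 7.33 CPM against 9.78, 148 and 9.52 CPM. The weakest member was the helicase subunit Mcm7, chosen after its values were seen, at 1.38 and 1.47 on the log2 scale. The replication list spread over a wider range than the mitosis list, from 1.38 to 4.66 in wild type.

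Promoters of a few members are shown because the cell cycle and sterol lists are classic examples of shared promoter motifs. They are the 250 bases before the RefSeq gene start (GRCm38.p6), 5′ to 3′ on the gene's strand. The annotation used for the counts places some starts elsewhere. There Cdc6 starts at 98907801, so its whole window lies within the gene. Cdk1 starts there at 69352938, so the last bases of its window, with the second CHR, lie within the gene. Capitals mark the cell cycle homology region (CHR; TTTGAA or TTCGAA) and CCAAT boxes (CCAAT) in Cdk1 and Ccnb2, an E2F motif (TTTCCCGC or TTTGGCGC) in Cdc6 and a sterol regulatory element (SRE; TCACNCCAC) in Hmgcs1. All were searched on both strands, so a motif can appear as its reverse complement, and neighbouring matches do not overlap.
Cdk1, chr10:69352913-69353162, minus strand: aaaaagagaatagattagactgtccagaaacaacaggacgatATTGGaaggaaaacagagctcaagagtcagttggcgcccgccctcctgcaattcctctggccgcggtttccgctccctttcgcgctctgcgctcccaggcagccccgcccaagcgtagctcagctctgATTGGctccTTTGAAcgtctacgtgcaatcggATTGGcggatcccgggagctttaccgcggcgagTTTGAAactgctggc
Ccnb2, chr9:70421555-70421804, minus strand: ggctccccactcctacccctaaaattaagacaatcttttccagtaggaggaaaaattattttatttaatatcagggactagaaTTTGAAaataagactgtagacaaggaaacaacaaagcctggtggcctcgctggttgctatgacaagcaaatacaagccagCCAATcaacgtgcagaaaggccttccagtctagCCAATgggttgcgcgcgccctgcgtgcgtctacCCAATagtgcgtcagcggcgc
Cdc6, chr11:98907901-98908150, plus strand: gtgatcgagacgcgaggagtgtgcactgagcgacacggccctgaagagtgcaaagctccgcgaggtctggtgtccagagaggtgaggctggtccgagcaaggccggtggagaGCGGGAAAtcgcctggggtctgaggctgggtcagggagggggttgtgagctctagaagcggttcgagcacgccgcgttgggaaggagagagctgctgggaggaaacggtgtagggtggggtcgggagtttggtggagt
Hmgcs1, chr13:119690101-119690350, plus strand: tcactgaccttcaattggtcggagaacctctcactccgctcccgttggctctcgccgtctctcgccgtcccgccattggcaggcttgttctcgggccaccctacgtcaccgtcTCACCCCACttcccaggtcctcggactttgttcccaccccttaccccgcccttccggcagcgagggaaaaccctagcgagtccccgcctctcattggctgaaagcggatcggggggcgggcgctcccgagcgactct

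Of the 24 mitosis genes 19 had a promoter entry. A CHR stood in 9 of these 19 (47.4%), against 19.5% of 27018 genes with an entry, and a CCAAT box in 16 (84.2%), against 37.5%. In Cdk1 a CHR began 71 and 15 bases before the start and CCAAT boxes began 208, 80 and 48 bases before it. An E2F motif stood in 5 of 20 replication genes (25.0%), namely Cdc6, Mcm5, Mcm6, Mcm7 and Pola1, against 1.5% of all genes. The SRE letters stood in 1 of 17 sterol genes with an entry, Hmgcs1, against 1.2% of all. For the astrocyte list the nuclear factor I motif, given by its name, was in 0 of 16 (0.0% of all), and for the ATF4 list the motif TGATGNAAT, added after values were seen, was in 0 of 17 (0.9% of all). These are matches of letters in a window, not binding sites.

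Of 22 G1 cyclins, kinases and E2F and MYB factors tested, 14 were counted as higher, 0 as lower and 8 as neither. Ccnd1, cyclin D1, which couples growth factor signals to the cycle, had 41.6, 487 and 40.3 CPM in wild type and 82.3, 807 and 79.3 CPM in Chd5-/-. At 3 h it stood between 1377 and 1995 CPM, so the number 2 libraries lay between the 3 h and the other 48 h libraries. E2f7, Foxm1, Ccne1, Mybl2 and E2f2, transcription factors of the cycle and cyclin E1, differed by 3.17 to 3.68 on the log2 scale. The 8 not counted were Cdk4, Cdk6, Ccnd3, E2f4, E2f5, Mycn, Rb1 and Rbl2 (all named after their values were seen). Rb1, the retinoblastoma pocket protein, stood at -1.35 in wild type and -0.8 in Chd5-/-.

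None of the 7 CDK inhibitors, proteins that hold the cycle in check, was counted in either direction. Over all genes 7.65% were higher and 8.8% lower, so few or none of 7 would be counted, and this is no result about them. Cdkn1b (p27) had 92.8, 89.2 and 102 CPM in wild type and 119, 116 and 119 CPM in Chd5-/-, a difference of -0.09 ± 0.08. Cdkn1a (p21) had 8.91, 15.2 and 9.71 CPM in wild type and 106, 153 and 114 CPM in Chd5-/-, slightly higher in number 2 (0.57 ± 0.09). Cdkn2d (p19) was higher by 0.6 in wild type and 1.75 in Chd5-/-. In wild type Cdkn2a and Cdkn2b moved most. Cdkn2a differed by 1.2 in wild type and 0.33 in Chd5-/-, and Cdkn2b by -1.37 and 0.05. Cdkn2b had only 27, 9 and 32 reads in wild type. On the per-length TPM scale, the levels of Cdkn1b in wild type were 33.3, 24.1 and 36.7 and those of Cdkn1a 4.07, 6.02 and 4.56.

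Genes linked to quiescence and FOXO factors were mixed. Of 18 tested, 6 were lower, 1 was higher and 11 were neither, with medians of -1.18 in wild type and -0.82 in Chd5-/-. Id4, an inhibitor of bHLH factors that is high in quiescent stem cells, had 14, 0.27 and 14.1 CPM in wild type and 42.6, 0.734 and 46.6 CPM in Chd5-/-. Nfix, a nuclear factor I gene of stem cell quiescence, had 274, 72.6 and 266 CPM against 322, 120 and 309 CPM. The number 2 libraries were the low ones for both genes, in each genotype and without overlap. Pik3ip1, Id2 and Foxo1 were lower by 1.24 or more in each genotype. The member counted as higher was Gas1, a growth arrest gene, with 111, 590 and 109 CPM in wild type and 46.4, 176 and 45.5 CPM in Chd5-/-.

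Genes that EGF and FGF receptors switch on through ERK, feedback inhibitors and Etv transcription factors among them, were high in number 2 for 4 of 15 tested and low for 0. Ier3, 1 of the 4, had only 2, 10 and 2 reads in wild type. Dusp6, the ERK phosphatase, had 32.7, 314 and 33.5 CPM in wild type and 23.7, 357 and 23.9 CPM in Chd5-/-. Spry4, a Sprouty inhibitor of receptor signals, had 25.1, 194 and 26.5 CPM against 17.2, 264 and 15.6 CPM. In number 2 both genes stood above every 3 h library, where Dusp6 ranged from 90.2 to 236 CPM (221 to 236 without wild-type number 1) and Spry4 from 55.4 to 126 CPM (112 to 126). Etv5, a transcription factor induced by FGF, was not counted, with differences of 0.98 and 2.03. The labels give the same medium for all 48 h libraries.

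**Figure D2:**
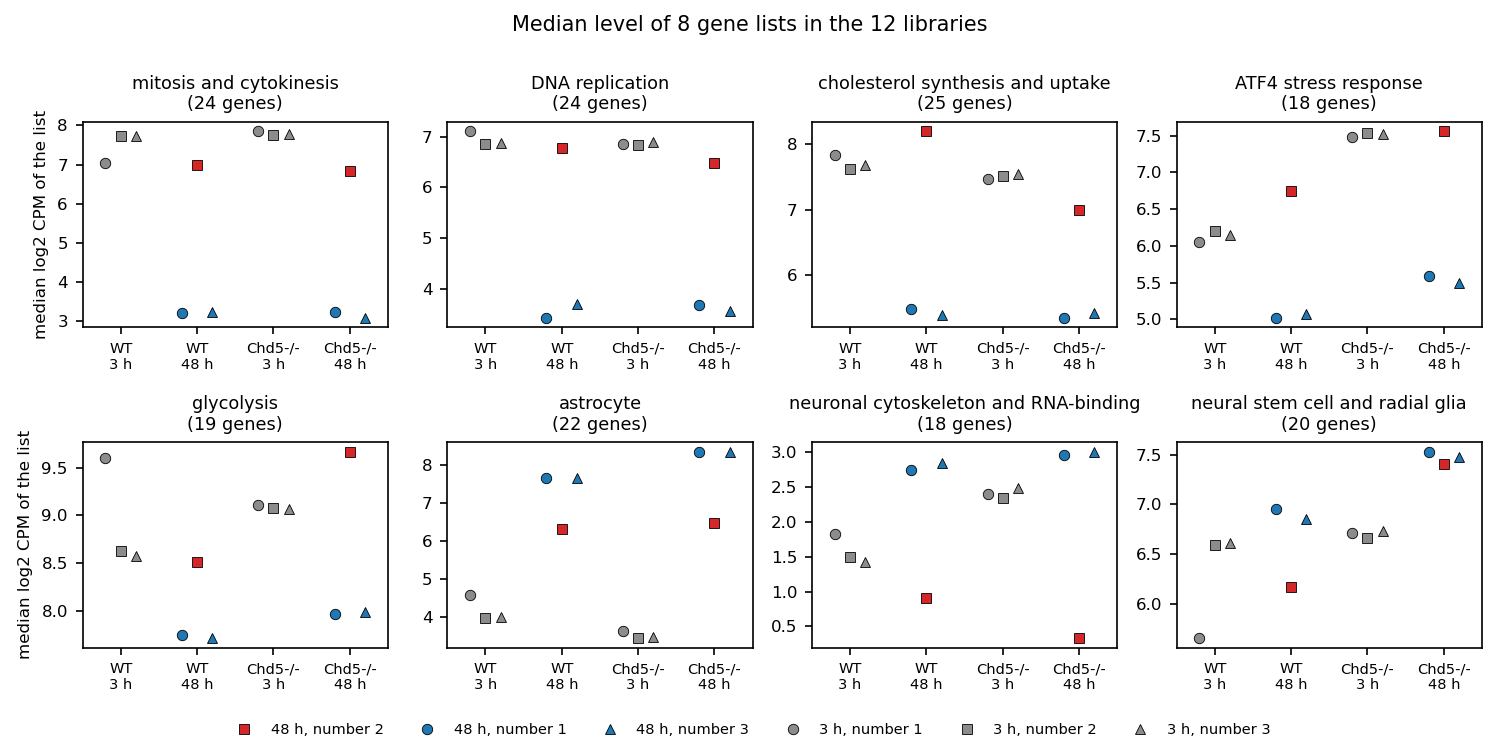
Median log2 CPM of 8 gene lists, over all their genes, in each of the 12 libraries, grouped by genotype and time, with red squares for number 2 at 48 h, blue for numbers 1 and 3 at 48 h and grey for 3 h. For mitosis genes, number 2 at 48 h stood at 6.98 and 6.84 and the other 48 h libraries between 3.07 and 3.22, while for astrocyte genes number 2 lay at 6.30 and 6.47, between the 3 h and the other 48 h libraries.

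Among lists with at least 7 tested members, sterol genes had the largest share counted as higher after mitosis and replication. Of 24 genes of cholesterol synthesis and uptake tested, 21 were higher, 0 were lower and 3 were neither, with medians of 2.03 in wild type and 1.79 in Chd5-/-. Dhcr7, which makes the last step to cholesterol, had 35.4, 417 and 35.8 CPM in wild type and 31.1, 182 and 32.2 CPM in Chd5-/-, a difference of 3.06 ± 0.21. Number 2 of each genotype stood above the 3 h libraries of that genotype, which held 159 to 181 CPM in wild type (172 to 181 without number 1) and 117 to 122 CPM in Chd5-/-. Cyp51, Msmo1, Nsdhl and Fdps, enzymes along the same route, were higher by 2.12 to 3.17.

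Hmgcs1, the cytosolic HMG-CoA synthase and a marker given for this split, was weaker than most sterol genes and was not counted. It had 359, 521 and 373 CPM in wild type and 234, 492 and 241 CPM in Chd5-/-, differences of 0.48 and 1.06. The number 2 library was the highest in each genotype, but the 3 h libraries held 789 to 1866 CPM, or 1505 to 1866 without wild-type number 1. Besides Hmgcs1, the sterol genes not counted were Mvk and Pmvk, kinases of the mevalonate route named after their values were seen.

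Fatty acid synthesis genes followed in part, with 5 of 13 higher and 0 lower. Scd1, the stearoyl-CoA desaturase, had 53, 653 and 52.9 CPM in wild type and 75.2, 428 and 75.3 CPM in Chd5-/-. Elovl6, Elovl5, Fads1 and Acss2 were higher by 1.04 to 2.34. Genes of sterol efflux went the other way, with 5 of 12 lower and 0 higher. Abca1, which exports cholesterol and is induced by LXR receptors, had 95.9, 8.43 and 99.8 CPM in wild type and 132, 22.8 and 126 CPM in Chd5-/-. Apoe, the lipid carrier of astrocytes, had 230, 34 and 236 CPM against 710, 21.6 and 702 CPM. In both genotypes the number 2 libraries were high for sterol synthesis genes and low for Abca1 and Apoe.

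Genes of the ATF4 response, which supplies amino acids and one-carbon units, were higher in number 2 for 12 of 18 members and lower for 0, with medians of 1.79 and 2.03. Mthfd2, the mitochondrial enzyme of one-carbon metabolism, had 5.07, 131 and 5.06 CPM in wild type and 5.64, 274 and 5.11 CPM in Chd5-/-, a difference of 5.2 ± 0.22. Trib3, a pseudokinase target of ATF4, had 1.28, 35.3 and 1.31 CPM against 0.743, 76.2 and 0.631 CPM. Trib3 stood in number 2 of each genotype above the 3 h libraries of that genotype, and Mthfd2 did so in Chd5-/- only. The serine enzyme Shmt2, the asparagine synthetase Asns and the amino acid transporter Slc7a5 were higher by 2.74 to 3.62. Chac1, which degrades glutathione, had 0.672, 7.55 and 0.284 CPM in wild type and 0.495, 36.2 and 0.315 CPM in Chd5-/-.

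Glycolysis genes were higher for 9 of 19 members and lower for 1, with medians of 0.92 in wild type and 1.75 in Chd5-/-. Slc2a1, the glucose transporter GLUT1, had 14.8, 256 and 13.3 CPM in wild type and 19.2, 86 and 18.9 CPM in Chd5-/-. At 3 h it ranged from 17.8 to 24.8 CPM, so the number 2 libraries were above all others. Hk2, a hexokinase, had 5.07, 51.9 and 5.79 CPM against 9.35, 78 and 9.84 CPM. Ldha, lactate dehydrogenase A, had 336, 1241 and 342 CPM against 261, 1265 and 254 CPM. The member that was lower was Aldoc, the aldolase of astrocytes, at -2.34 and -1.28. It was named after its values were seen, and the astrocyte list holds it too.

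A list of HIF targets was added after the values were seen, and its counts are a description only: 7 of 18 were higher and 1 was lower. Vegfa (ENSMUSG00000023951, chromosome 17, 46016993 to 46032369), the vascular growth factor induced by low oxygen, had 49.8, 857 and 46.3 CPM in wild type and 37.9, 600 and 41.2 CPM in Chd5-/-. At 3 h it ranged from 20.2 to 67.2 CPM, or from 55.4 without wild-type number 1. P4ha1, a collagen prolyl hydroxylase, had 85, 719 and 80.5 CPM against 78.7, 295 and 74.8 CPM. The labels give no oxygen level, and cell density is not given either. Adm and Ero1l were higher as well, and Pfkfb3, a glycolytic regulator named after its values were seen, was the member that was lower, at -1.49 and -1.64.

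**Figure D3:**
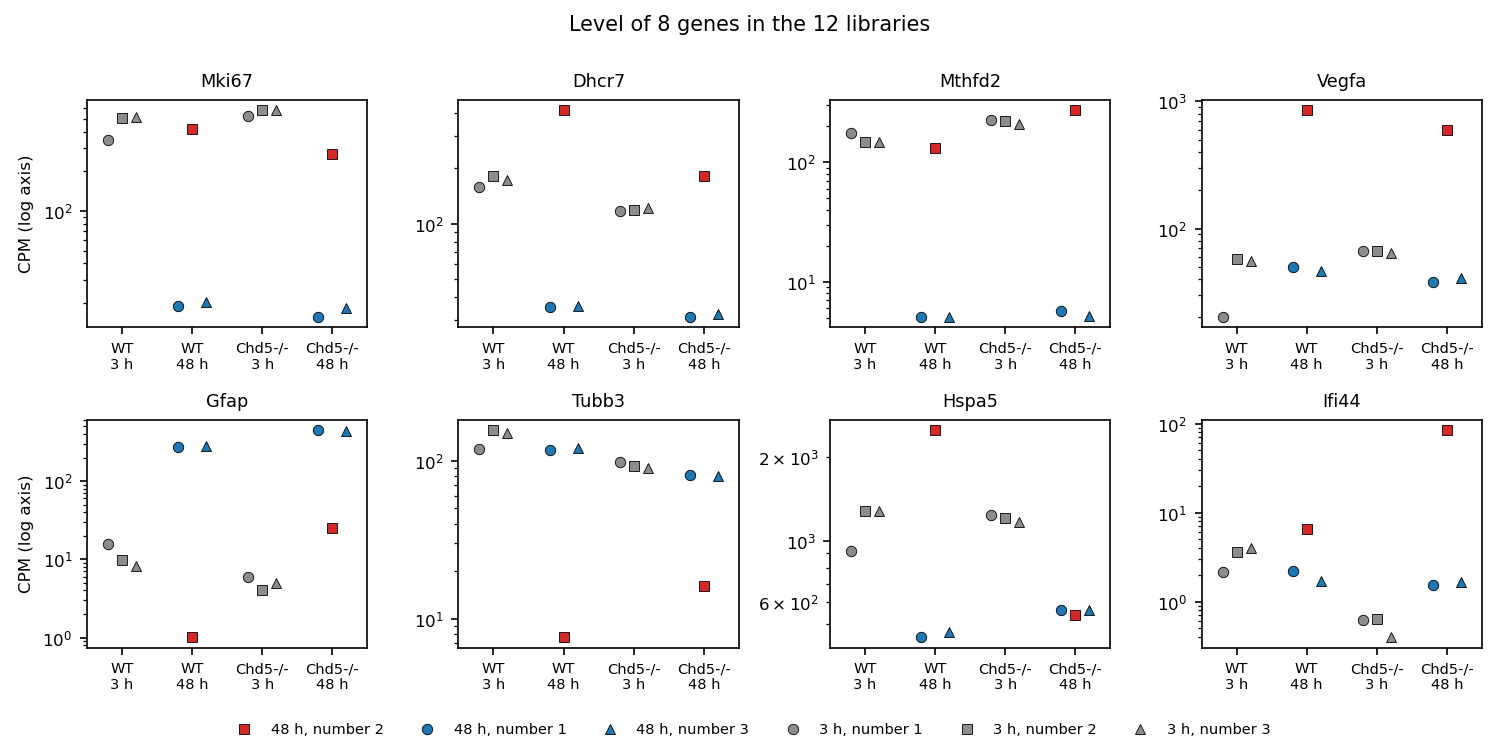
CPM of 8 genes in each of the 12 libraries on a log axis, grouped by genotype and time, with red squares for number 2 at 48 h, blue for the other 48 h libraries and grey for 3 h. Vegfa in number 2 (857 and 600 CPM) stood above every other library and Tubb3 (7.62 and 16 CPM) below every other, while Hspa5 and Ifi44 differed between the genotypes.

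Astrocyte genes were low in number 2. Of 21 tested, 11 were lower, 0 were higher and 10 were neither, with medians of -1.52 in wild type and -1.28 in Chd5-/-. Gfap (ENSMUSG00000020932, chromosome 11, 102887336 to 102900912), the intermediate filament of astrocytes, had 269, 1.01 and 280 CPM in wild type and 448, 24.8 and 442 CPM in Chd5-/-. Ndrg2, a stress-response gene of astrocytes, had 10.1, 0.135 and 10 CPM against 109, 4.34 and 110 CPM. Clu, which encodes the secreted chaperone clusterin, had 55.9, 3.3 and 57.5 CPM against 75, 5.67 and 73.2 CPM. Wild-type number 2 was also below the 3 h libraries for Gfap, which ranged there from 4.1 to 15.7 CPM (to 9.85 without wild-type number 1). Mt3, a brain metallothionein, and Ntsr2, a neurotensin receptor of astrocytes, were lower by 2.79 to 4.82.

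Not all astrocyte genes did this. Aqp4, the water channel of astrocyte endfeet and a marker given for the split, had 97.2, 26 and 94.6 CPM in wild type but 5.51, 4.81 and 5.42 CPM in Chd5-/-, where number 2 lay only just below the others. It was therefore not counted, and it marks the split in wild type only. Slc1a3, the glutamate transporter GLAST, chosen after its values were seen, was 1.02 higher in wild-type number 2 and stood at -0.17 in Chd5-/-. The median astrocyte level in number 2 (6.30 in wild type and 6.47 in Chd5-/-, log2 CPM) lay between that of the 3 h libraries (3.43 to 4.57, or 3.43 to 3.99 without wild-type number 1) and that of numbers 1 and 3 (7.64 to 8.34).

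Some neuronal genes were low too, and most synaptic and proneural genes were neither. Of 16 genes of the neuronal cytoskeleton and RNA-binding proteins, 7 were lower and 1 was higher, with medians of -2.08 in wild type and -0.96 in Chd5-/-. Of 17 proneural and neuroblast genes, 5 were lower and 0 higher, with medians of -1.06 and -0.71. Of 18 synaptic genes 4 were lower and 0 higher, with medians of -0.32 and -0.62, and their median level in wild type was 3.54, 3.73 and 3.72 log2 CPM. Tubb3 (ENSMUSG00000062380, chromosome 8, 123411424 to 123422015), the neuronal tubulin, had 118, 7.62 and 121 CPM in wild type and 81.2, 16 and 79.9 CPM in Chd5-/-. Dcx, the doublecortin of migrating neuroblasts, had 7.08, 0.337 and 7.61 CPM against 15.8, 0.134 and 16.5 CPM. Mapt, which encodes tau, had 161, 17.3 and 169 CPM against 207, 42.8 and 201 CPM. The number 2 libraries were the low ones for all 3 genes. Dll1, a Notch ligand of newborn neurons, and Sox4, a factor of neuronal differentiation, were lower by 1.04 to 2.21. The member that was higher was Gap43, the growth cone protein, with 3.66, 20.4 and 2.84 CPM in wild type but at most 0.401 CPM in Chd5-/-.

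Of 18 stem cell genes tested, 2 were higher, 3 lower and 13 neither, where 7.65% of all genes were higher and 8.8% lower. These counts are too small to set the list apart from all genes. Hes5, a Notch target that keeps progenitors, had 89.5, 7.35 and 89.8 CPM in wild type and 132, 48.6 and 138 CPM in Chd5-/-. Tnc, the matrix protein tenascin C of the stem cell niche, had 424, 5978 and 410 CPM in wild type and 312, 750 and 316 CPM in Chd5-/-. Hes1, another Notch target, had 34.2, 70.7 and 30.5 CPM against 16.3, 56.1 and 17.7 CPM. Hes1 and Hes5 thus stood on opposite sides in each genotype. Sox2 and Nes, 2 general stem cell genes named after their values were seen, differed by less than 2-fold in each genotype.

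In the Notch pathway, 6 of 16 members were lower and 1 was higher. Hey2, a Notch target, had 18.3, 1.42 and 17.6 CPM in wild type and 22.1, 1.07 and 22.8 CPM in Chd5-/-. Dll4, a ligand, had 31.4, 1.69 and 34.9 CPM against 3.41, 0.668 and 2.9 CPM. Of 16 BMP genes 6 were lower and 1 higher. Smad7 and Smad9 were lower by 1.39 to 2.25, and Chrdl1, a secreted BMP antagonist, was higher by 2.33 in wild type and 1.66 in Chd5-/-. The BMP median in Chd5-/- was -1.39, and -1.11 with genes at 0 reads set at a floor of 3 counts per library. No other list median moved with that floor.

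Motile cilia genes were lower for 5 of 7 tested members. Foxj1, their master factor, had 28.2, 9.71 and 30.2 CPM in wild type and 27.6, 8.21 and 26.4 CPM in Chd5-/-, and 59 to 102 CPM at 3 h (59 to 63.9 without wild-type number 1). Immediate early genes were lower for 6 of 16 and higher for 1. Fos had 71.1, 7.28 and 75.8 CPM in wild type and 91.6, 27.8 and 95 CPM in Chd5-/-. Arc, a synaptic immediate early gene, was the member that was higher, at 1.62 and 2.44. In the oligodendrocyte lineage 1 of 11 was higher and 1 lower, close to the 7.65% and 8.8% of all genes. The higher member, Cspg4, the NG2 proteoglycan of precursors, had 26, 75.3 and 25.4 CPM against 84.5, 186 and 79.7 CPM.

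Counts in other lists were small. They read against 7.65% higher and 8.8% lower over all genes, and no result about these lists is drawn from them. Of 17 p53 targets, 2 were higher and 1 was lower, of 20 ribosome biogenesis genes 1 was higher and 0 lower, of 18 collagen and matrix genes 3 were higher and 0 lower, and of 20 lysosome and autophagy genes 1 was higher and 3 lower. The lower ones of the last list were Map1lc3b, Gabarapl1 and Sqstm1, carriers and receptors of autophagy. Map1lc3b had 257, 73.2 and 259 CPM in wild type and 338, 109 and 342 CPM in Chd5-/-. None of 13 mitochondrial mRNAs was counted, although mitochondrial genes took 1.63% of the reads in wild-type number 2 against 1.1% in numbers 1 and 3, and 1.02% against 0.93% and 0.95% in Chd5-/-.

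Markers of other cell types were scarce in all 48 h libraries. The summed level of 12 microglia genes was 1.34, 2.83 and 1.36 CPM in wild type and 0.681, 1.67 and 0.315 CPM in Chd5-/-, highest in number 2 of each genotype. The member that passed the filter, P2ry12, had 0.672, 2.16 and 0.909 CPM against 0.186, 1.47 and 0.126 CPM. The filter was grouped by number, so a scarce gene could pass through the 2 number 2 libraries. That P2ry12 passed is therefore no result about the split. The 10 endothelial genes summed to 12.8, 14 and 12.1 CPM in wild type and 8.55, 7.81 and 9.08 CPM in Chd5-/-. The 12 fibroblast and smooth muscle genes summed to 15.4, 11.5 and 13.6 CPM against 12.3, 20.7 and 11.1 CPM, and 8 erythroid genes to at most 0.202 CPM. Their part in the results was not tested.

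Outside the lists, the higher genes with the largest smaller-of-2-genotypes difference included Atp2a3, a calcium pump of the endoplasmic reticulum. It had 0.55, 25.4 and 0.341 CPM in wild type and 0.0619, 6.54 and 0.0631 CPM in Chd5-/-. Arhgef39, a guanine nucleotide exchange factor, had 2.08, 131 and 1.31 CPM against 1.61, 63.4 and 1.96 CPM. Slc7a1, the arginine transporter CAT1, had 23, 938 and 23 CPM against 13.2, 358 and 14.1 CPM. For all 3 the number 2 libraries lay above both others without overlap. Car3, a carbonic anhydrase, had 3.3, 79.6 and 3.58 CPM in wild type and 1.42, 243 and 1.64 CPM in Chd5-/-. Cox6a2, a subunit of cytochrome oxidase, was higher by 5.17 and 4.92, with 1, 83 and 1 reads in Chd5-/-. Tk1, Pbk, Pif1, Kntc1, Troap, Melk and Hmmr, which serve nucleotide supply, mitosis or the spindle, were higher by 4.14 to 5.17. P2rx3 had 91.1 and 45.1 CPM in number 2 and at most 1.77 CPM in the others, but it overlaps Ssrp1 on the other strand. Cox6a2 overlaps Itgad, and Tk1 overlaps Afmid, in the same way. Whether the counting used strand is not given in the sources used here, so the levels of these genes are uncertain.

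At the other end stood Miat, a long noncoding RNA of neural cells, with 1426, 17.9 and 1433 CPM in wild type and 299, 2.2 and 300 CPM in Chd5-/-. At 3 h it was between 0.316 and 3.16 CPM, so the number 2 libraries resembled the 3 h ones far more than the other 48 h ones. Helt, a bHLH factor, had 64 and 87 reads in wild-type numbers 1 and 3 and 0 in number 2, at least 21.9-fold lower against a floor of 3 counts. In Chd5-/- it had 193 and 187 reads against 0, at least 59.3-fold lower. Floors cover counting error only. Shisa9, which modulates AMPA receptors, had 107 and 106 reads against 0 in wild type, at least 31-fold lower, and 664 and 672 reads against 1 in Chd5-/-. Mt2, a metallothionein, had 22.3, 0.0674 and 23.8 CPM in wild type and 26.6, 1.6 and 26.9 CPM in Chd5-/-, while the 3 h libraries held 60.2 to 290 CPM (to 215 without wild-type number 1). Retreg1, a receptor of ER autophagy, had 46.4, 0.742 and 48.3 CPM against 40.9, 2.07 and 39 CPM. Mapk8ip2, Mybpc1, Plekha6, Pkd2l1, Mmp24 and Mroh7 were low in number 2 as well, at 2.76 CPM or less.

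The 3 h libraries give a scale for these levels. They share no library with the 48 h split but were not chosen to test it, so values are given side by side with no test. For mitosis genes the median log2 CPM was 6.98 and 6.84 in number 2, 7.03 to 7.85 at 3 h (7.72 to 7.85 without wild-type number 1) and 3.07 to 3.22 in numbers 1 and 3. For replication genes it was 6.79 and 6.48 against 6.84 to 7.11 (to 6.9 without wild-type number 1) and 3.42 to 3.69. For sterol genes it was 8.20 in wild-type number 2 and 7.0 in number 2 of Chd5-/-, against 7.47 to 7.83 at 3 h (to 7.69 without wild-type number 1). Summed CPM of the mitosis list was 4054 and 3567 in number 2, against 4180 to 6414 at 3 h (from 5803 without wild-type number 1). It was 251 to 258 in numbers 1 and 3. For the replication list the sums were 3117 and 2832, against 4887 to 5172 (to 5061) and 517 to 541. For the cell cycle the number 2 libraries thus lay below the 3 h level but closer to it than to numbers 1 and 3. For sterol genes they lay above the 3 h level in wild type and below it in Chd5-/-.

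Number 2 was not always between 3 h and the rest of 48 h. A gene was set apart, by a rule added after the values were seen, where number 2 of each genotype lay at least 2-fold beyond every other library of that genotype at either time. Of 16043 genes 92 lay above (0.573%) and 118 below (0.736%), or 130 and 169 without wild-type number 1 at 3 h. Above were Vegfa, Slc2a1, P4ha1 and P4ha2 among HIF targets, Hk2, Pdk1 and Slc2a1 in glycolysis, Slc7a5 and Slc3a2 among ATF4 targets, and Acss2, Cspg4 and Jag1. Below were Tubb3, Cplx2, Foxj1, Rfx2, Fas, Fosb and Npas4. Slc3a2 and Jag1 were named after their values were seen. Pdk1, which steers pyruvate away from mitochondria, had 25.8, 103 and 26.4 CPM in wild type and 22.8, 127 and 22.3 CPM in Chd5-/-, against 9.11 to 21.9 CPM at 3 h (17.8 to 21.9 without wild-type number 1). Npas4, a neuronal activity gene, had 2.5, 0.405 and 3.18 CPM against 0.929, 0.134 and 1.32 CPM, and 17.3 to 71.5 CPM at 3 h. None of the 24 mitosis and 24 replication genes listed was among the 210. At 0.573% and 0.736% of all genes, few or none would be, so this is no result about them.

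The number itself was tested at 3 h, in libraries that the split had not used. With genotype as covariate, 0 of 15283 genes passed edgeR's quasi-likelihood test (0%) at a Benjamini-Hochberg adjusted p under 0.05, and 29 had an unadjusted p under 0.05. The smallest adjusted p was 0.931. DESeq2 called 1 gene and limma-voom 0. Without wild-type number 1, which stood apart, edgeR called 5 genes, all lower in number 2. Mki67 differed by 0.14 ± 0.26 on the log2 scale (edgeR adjusted p = 0.931), Top2a by 0.22 ± 0.37 and Ccnd1 by -0.11 ± 0.24 (both adjusted p = 0.931). At 3 h Mki67 had 347, 509 and 518 CPM in wild type and 529, 581 and 584 CPM in Chd5-/-, so number 2 did not stand apart from number 3. The median difference was 0.13 over the 24 mitosis genes, -0.01 over the 24 replication genes and 0.12 over the 24 sterol genes tested. A p that misses the threshold does not show that the numbers are alike.

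Whether the number 2 difference was the same in both genotypes was tested at 48 h as a genotype by number interaction. The split used the levels of mitosis genes in these libraries, so for them the interaction is no test. Of 15834 genes 7140 passed (45.1%, edgeR quasi-likelihood, adjusted p under 0.05), of which 3778 (23.9%) had a larger difference in Chd5-/-, meaning a more positive one, and 3362 (21.2%) a smaller one. At least 2-fold differences passed for 1723 genes. Each genotype has 1 number 2 library, and the error comes from the small spread between numbers 1 and 3, with 2 residual degrees of freedom. Genotype and library therefore cannot be told apart, and the test compares these libraries. With all 12 libraries in 1 fit, whose spread includes wild-type number 1 at 3 h, 0 genes passed (1016 at an unadjusted p under 0.05), and without that library in the same fit 6283 passed.

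**Figure D4:**
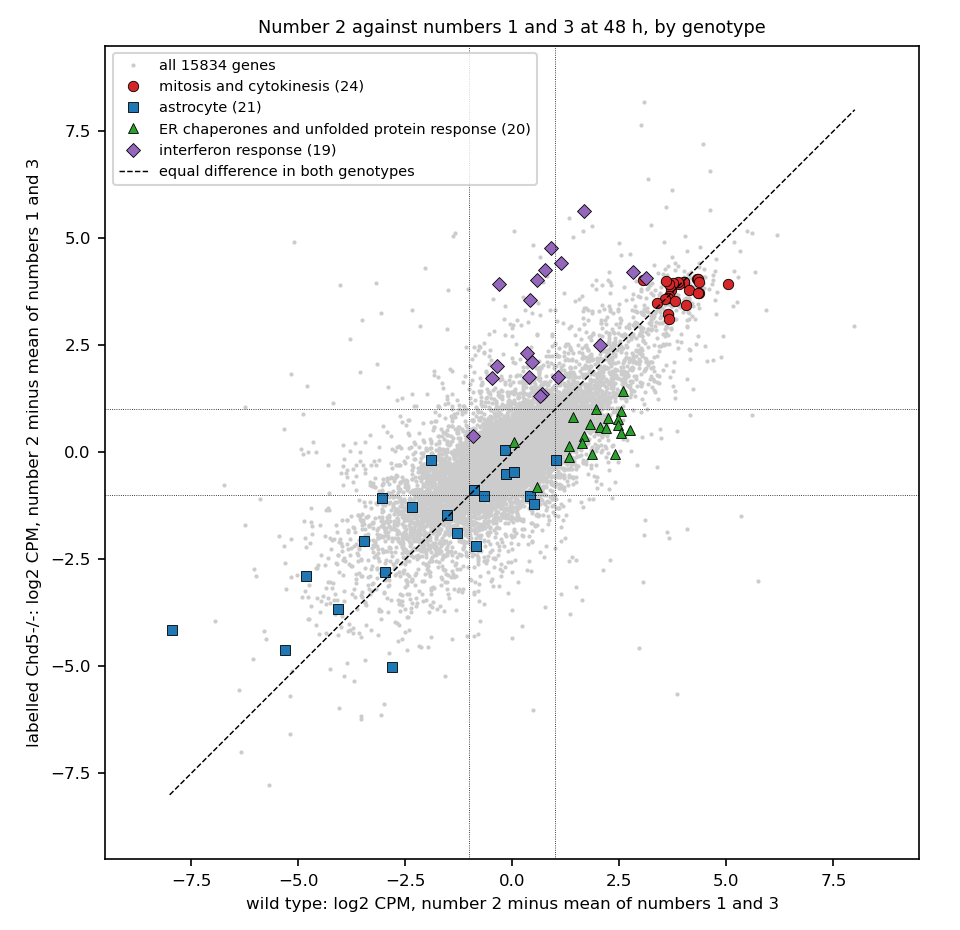
Difference in log2 CPM between number 2 and the mean of numbers 1 and 3 at 48 h, in wild type (horizontal) and in Chd5-/- (vertical), for all 15834 genes (grey) and 4 lists. The mitosis genes, which chose the libraries, lie on both sides of the dashed line of equal difference (medians 3.83 and 3.86). All but 1 of the 20 ER chaperones lie below it (medians 2.00 and 0.55) and the interferon genes above it (medians 0.65 and 2.51).

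Interferon response genes differed between the number 2 libraries. Of 19 tested, 18 had a larger difference in Chd5-/- and 0 a smaller one, and 6 were higher in number 2 of both genotypes. Ifi44 (ENSMUSG00000028037, chromosome 3, 151730922 to 151749960), an interferon-induced gene, had 2.2, 6.61 and 1.7 CPM in wild type and 1.55, 84.5 and 1.64 CPM in Chd5-/- (interaction 4.0 ± 0.27, edgeR adjusted p = 4.5e-07). Usp18, which restrains interferon signals, had 3.42, 8.16 and 3.75 CPM against 4.46, 106 and 5.36 CPM (3.29 ± 0.21, adjusted p = 2.45e-07). Rsad2, the antiviral enzyme viperin, was high in number 2 of both, with 3.54, 32.8 and 3.58 CPM against 3.41, 65 and 4.16 CPM. Ifi44 and Usp18 were thus far higher in the number 2 library labelled Chd5-/- than in the 5 other libraries of 48 h. The list's median log2 CPM was 6.4 there, 3.05 in wild-type number 2, and 2.25 to 2.37 in the others of 48 h.

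ER chaperones, a list added after the values were seen, differed the other way: 19 of 20 had a smaller difference in Chd5-/- and 0 a larger one. Hspa5 (ENSMUSG00000026864, chromosome 2, 34771970 to 34777547), the chaperone BiP, named after its values were seen, had 450, 2493 and 468 CPM in wild type and 561, 542 and 564 CPM in Chd5-/- (interaction -2.46 ± 0.04, edgeR adjusted p = 1.08e-11). Hyou1, another ER chaperone, had 147, 884 and 151 CPM against 144, 281 and 144 CPM (-1.57 ± 0.05, adjusted p = 1.09e-09). Herpud1 and Edem1, which serve degradation of ER proteins, were the 2 members counted as higher in both. Wild-type number 2 thus stood high for this list and number 2 of Chd5-/- close to its own numbers 1 and 3, with medians of 2.00 and 0.55.

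Ribosome biogenesis genes had a smaller difference in Chd5-/- for 17 of 20 and a larger one for 0. Nop56, a core protein of box C/D particles, had 104, 530 and 104 CPM in wild type and 111, 232 and 117 CPM in Chd5-/- (-1.28 ± 0.05, adjusted p = 8e-09 in edgeR). Glycolysis genes had a larger difference in Chd5-/- for 15 of 19 and a smaller one for 1, which was Slc2a1 (-1.98 ± 0.1, adjusted p = 3.62e-08). Fatty acid genes had a smaller difference for 10 of 13 and sterol genes for 13 of 24, with 1 and 3 larger. For the mitosis list, whose levels chose the libraries, the median interaction of -0.04 is a description and no count of calls is given.

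For astrocyte genes 7 of 21 had a larger difference in Chd5-/- and 9 a smaller one. Aqp4 gave an interaction of 1.73 ± 0.21 (edgeR adjusted p = 3.45e-05) and Gfap 3.94 ± 0.2 (adjusted p = 5.33e-08), so both lay further below numbers 1 and 3 in wild type. Apoe went the other way (-2.22 ± 0.08, adjusted p = 5.59e-09). The cholesterol marker Hmgcs1 had a larger difference in Chd5-/- (0.58 ± 0.05, adjusted p = 2.02e-06). Among the strongest by the rule, Wif1, a secreted Wnt inhibitor, had 0.672, 4.11 and 0.738 CPM in wild type and 10.1, 4.74 and 10.2 CPM in Chd5-/-, a difference of opposite sign. Cdh11, a mesenchymal cadherin, had 1.53, 0.809 and 1.65 CPM against 38, 1.8 and 38 CPM. Of the 2604 genes counted in both genotypes, 988 passed the interaction, a smaller share than the 45.1% of all 15834 genes. Counting asked for the same direction in both genotypes of these same libraries, so this share is a description only.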

How the data were processed

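RNA of 12 libraries was quantified by the authors with Salmon, per the submitters' processing notes; no source used here gives its version, settings or transcript set. Per the file headers, the deposited tables hold estimated counts (NumReads) and TPM, a length-scaled level, for 140658 transcripts. TPM as deposited was used only for the per-length levels of 2 CDK inhibitors. Of the transcripts, 140137 matched GENCODE M21 (GRCm38), whose build need not be that of the index. The 521 others held 0.135% to 0.181% of reads and were left out. Estimated counts were summed to 54356 genes and rounded.

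Libraries held 14.11 to 18.71 M reads. The filter was filterByExpr with a minimum count of 10 and a minimum total of 15. Counts were scaled with TMM and fitted in edgeR 4.0.16 (R 4.3.3) with two-sided quasi-likelihood F tests and Benjamini-Hochberg adjustment over all genes tested. CPM are on a scale over all 12 libraries, and log2 differences within a genotype on one over the 6 of 48 h, with a prior count of 2. Scripts were tested on simulated data. DESeq2 1.42.0 and limma 3.58.1 (voom) were alternatives, as were RLE factors, other filters, a prior count of 0.5, a length offset, a replicate block and each library left out.

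The members, the 31 gene lists, the motifs and the naming rule were chosen with earlier results of these data known, and 2 further lists (ER chaperones, HIF targets), 1 motif and the comparison with all other libraries were added after values were seen. Named were the 4 markers and Chd5, the 15 genes per direction with the largest smaller difference of the 2 genotypes (at least 5 CPM on the higher side), up to 6 members per list by the same measure, and 5 per direction for each test; genes outside this rule are said to be. Same-numbered libraries at 48 h correlated in their deviations at 0.559, 0.736 and 0.562 over genes for numbers 1, 2 and 3. The best correlation with another number was 0.596, -0.636 and 0.584, so only number 2 went best with its own. Number 1 minus number 3 gave a correlation of -0.0676 between genotypes. At 3 h the values were 0.149, 0.0752 and 0.0535. Where the numbers come from is not given in the sources used here. Promoter sequences are from RefSeq, GRCm38.p6. Values of a few genes are not reported here.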

Additional observations from a re-analysis of the deposited data

Results flagged for a closer look

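The genotype by number interaction at 48 h passed for 7140 of 15834 genes (45.1%). Among 214 genes eligible to be named it passed for 124, some of them mitosis genes, for which it is no test. Some of the 214 were eligible because they passed it, so the count of 124 is no result about them. The interaction was picked out because the difference between number 2 and the others was itself tested between the genotypes. Each genotype has 1 number 2 library, so genotype and library cannot be told apart.

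The genes with the largest interactions (log2, Chd5-/- minus wild type) rest in part on libraries with 0 reads. A fitted value then depends on the prior count and is no bound. Zc3h11a (12.23) had 0, 272 and 648 reads in wild type and 0, 538 and 0 in Chd5-/-, Gdf1 (-10.46) had 7.94, 13.2 and 10.8 CPM against 8.3, 0 and 7.76 CPM, and Trpc2 (-9.94) had 71, 86 and 0 reads against 41, 0 and 51. These 3 overlap other genes on the same strand (Zbed6 and a second Zc3h11a entry, Cers1, and Xntrpc and Xndc1), so reads can be split between copies and their levels are uncertain. Gsg1l (6.98) had 121, 0 and 142 reads in wild type, where number 2 was at least 38.2-fold lower, and 195, 23 and 198 in Chd5-/-. Olfml1 (6.87) had 45, 0 and 60 reads, at least 15.2-fold lower, against 163, 44 and 160. Dapk2 (5.94) had 192, 1 and 186 reads against 14, 6 and 18, and Trim30d (5.86), which overlaps Gm16464 on its strand, had 5, 1 and 4 against 8, 163 and 14. Wif1 (-3.59), Cdh11 (-3.39) and Fam167a (-3.36) had no library at 0. Fam167a had 20.6, 27.8 and 20.1 CPM in wild type and 5.94, 0.868 and 7.51 CPM in Chd5-/-.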

How the results depend on the processing

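The count of 2604 genes at 48 h, 1211 higher and 1393 lower, moved by over 1.5 times under several settings. At 4-fold it was 807 (462 higher, 345 lower). An edgeR fit with genotype as covariate and no demand on each genotype gave 4318 (1993, 2325), the same fit with a replicate block 4347 (2028, 2319), and wild type alone 5197 (2429, 2768). Leaving out 1 library gave 2552 to 5525 (1205 to 2686 higher and 1344 to 2839 lower): 3974 without wild-type number 2, 5525 without number 2 labelled Chd5-/-, because 1 genotype then decides. The other settings stayed within 1.5 times. No named gene with a mean difference of at least 2-fold reversed at 48 h. Over all eligible genes and settings, 940 values moved by more than the standard deviation between numbers 1 and 3, and 2314 did not. At 3 h, 0 calls became 1 (lower) in DESeq2, 3 (2 higher, 1 lower) with all libraries but wild-type number 1 in 1 fit, and 0 to 5 (0 to 5 lower) with 1 library left out, 5 of them without wild-type number 1. Chd5 at 3 h (-0.02) turned to 0.03 without a filter, and ranged from -0.11 to 0.07 with 1 library left out. Top2a at 3 h was 0 on the log2 scale without wild-type number 1, alone or in the fit of all others, and ranged from 0 to 0.48 with 1 library left out. The interaction count of 7140 was 4159 (1962 and 2197) in DESeq2, of 12457 genes with an adjusted p, 0 (0 and 0) with all 12 libraries, and 7075 with a replicate block, which changed no other call by over 1.5 times. Leaving out 1 library gave 6768 to 7363. The interaction of Acss2 turned to 0.01 without a filter and ranged from -0.05 to 0.04 with 1 library left out. The causes were not tested. The interaction without a number 2 library was not run, as no interaction is left.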
